A study of Rattus norvegicus with 12 samples.

Results

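The transcripts of the mitochondrial ribosomal proteins were followed in rat liver after long-term, free-choice ethanol drinking. Genes were taken by symbol, Mrpl or Mrps followed by a number, from a table of 34391 transcripts, of which 21718 had a value above 0 in at least 1 liver. The symbols matched 87 transcripts, 78 of them above 0, and the transcript with the highest mean level was kept for each gene, which gave 68 genes. Of these, 42 carried a large subunit symbol (Mrpl) and 26 a small subunit symbol (Mrps). All 68 were above 0 in each of the 12 livers.

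The 12 animals were females of the inbred alcohol-preferring strain iP10a, bred by selection for voluntary ethanol drinking. The 6 EtOH animals had free access to water and to 10, 20 and 30% ethanol for 23 weeks, and the 6 control animals had water only. Livers were taken at 38 weeks of age, except that of EtOH animal 6, taken at 39 weeks, and each liver gave 1 poly(A) RNA library. Both groups shared the strain and the sex, so a bred preference for ethanol was present in the control animals too. Levels are given in RPKM, reads scaled by transcript length and library size. In whole tissue, fewer cells of a type and less RNA per cell cannot be told apart.

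The mitochondrial ribosome, or mitoribosome, translates the respiratory chain and ATP synthase proteins that are encoded by mitochondrial DNA. Its ribosomal RNAs come from mitochondrial DNA, but its proteins are encoded in the nucleus, made in the cytosol and imported. The small subunit reads the mRNA, while the large subunit joins the amino acids and passes the new protein through its exit tunnel to the inner membrane. Some of the proteins descend from bacterial ribosomal proteins and others are found only in mitochondria. Hepatocytes, the main cells of the liver, are rich in mitochondria.

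Promoter windows of 3 small subunit genes are shown because these genes were among those lower in EtOH livers. Mrps2 and Mrps18b had the largest differences, and Mrps27 shares its promoter region with a neighbour that was lower as well. Each window of 300 bases runs from 250 bases before the RefSeq transcription start to 50 bases after it on GRCr8, 5′ to 3′. Capitals mark matches on either strand to any of 6 short motifs, GCGCATGCG for NRF1, CCGGAAGT for the ETS family, CACGTG for the E-box, AAGATGGCG for YY1, GGGGCGGGG for SP1 and ATTGG for the CCAAT box. The windows lie at chr3:32200827-32201126 for Mrps2, chr20:2842756-2843055 for Mrps18b and chr2:32473954-32474253 for Mrps27, all on the plus strand.
Mrps2: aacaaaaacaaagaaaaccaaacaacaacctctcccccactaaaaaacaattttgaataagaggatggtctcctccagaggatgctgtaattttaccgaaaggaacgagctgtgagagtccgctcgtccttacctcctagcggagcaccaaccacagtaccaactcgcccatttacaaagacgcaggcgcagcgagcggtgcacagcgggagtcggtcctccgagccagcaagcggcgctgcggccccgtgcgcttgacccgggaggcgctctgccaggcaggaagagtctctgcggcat
Mrps18b: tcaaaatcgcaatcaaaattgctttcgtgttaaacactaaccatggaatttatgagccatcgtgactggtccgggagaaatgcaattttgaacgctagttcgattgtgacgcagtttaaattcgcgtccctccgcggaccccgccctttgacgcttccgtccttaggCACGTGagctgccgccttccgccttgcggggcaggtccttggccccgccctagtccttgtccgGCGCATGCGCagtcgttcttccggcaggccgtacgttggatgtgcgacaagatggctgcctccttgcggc
Mrps27: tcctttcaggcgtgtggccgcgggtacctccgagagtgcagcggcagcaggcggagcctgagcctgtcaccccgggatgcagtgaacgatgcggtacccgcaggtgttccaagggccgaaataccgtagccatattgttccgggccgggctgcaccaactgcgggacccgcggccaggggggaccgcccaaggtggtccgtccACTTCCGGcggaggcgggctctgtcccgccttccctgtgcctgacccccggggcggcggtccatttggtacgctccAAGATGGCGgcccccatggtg
The Mrps2 window held none of the 6 motifs. The Mrps18b window held the NRF1 letters on both strands, overlapping at bases 231 to 240 of the window, and an E-box at bases 168 to 173. The Mrps27 window held the ETS letters on the minus strand at bases 204 to 211 and the YY1 letters at bases 280 to 288.

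Promoter windows were at hand for 55 of the 68 genes and came to 56 windows, because Mrpl14 had 2. The YY1 letters were in 9 of the 56 windows, or 16.1%, against 1.73% of all 33469 windows in the reference. ETS letters were in 8 windows (14.3%, against 3.81% of all) and NRF1 letters in 4 (7.14%, against 1.52%). E-box letters were in 7 windows (12.5%, against 6.42%), SP1 letters in 7 (12.5%, against 9.73%) and CCAAT letters in 25 (44.6%, against 37.5%). G and C made up a median of 55.7% of the windows of these genes and 51.7% of all windows. A match describes the letters and is not evidence that a factor binds there. Of the other genes lower in EtOH livers, Mrps26 held the ETS, SP1 and CCAAT letters, and Mrps34 and Mrpl19 had no window in the reference table.

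In EtOH livers the mitochondrial ribosomal protein transcripts lay mostly below the control level, by a small amount in most genes and by a larger amount in a few genes of both subunits. Differences were estimated with limma on quantile-normalized log2(RPKM + 0.5), fitted over all 21718 transcripts, and a gene was called lower or higher at a Benjamini-Hochberg adjusted p below 0.05. Of the 68 genes, 6 were called lower (8.82%), against 1.29% of all transcripts. These were Mrps2, Mrps18b, Mrps27, Mrps34, Mrpl19 and Mrps26. None of the 68 was called higher by limma, against 1.13% of all transcripts. On the log2 scale 60 of the 68 genes were below 0, and their median fold change was -0.16. Among all transcripts 10851 of 21718 were below 0, and among the 5785 transcripts with a mean RPKM inside the range of the 68 genes 49.7% were.

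**Figure D1:**
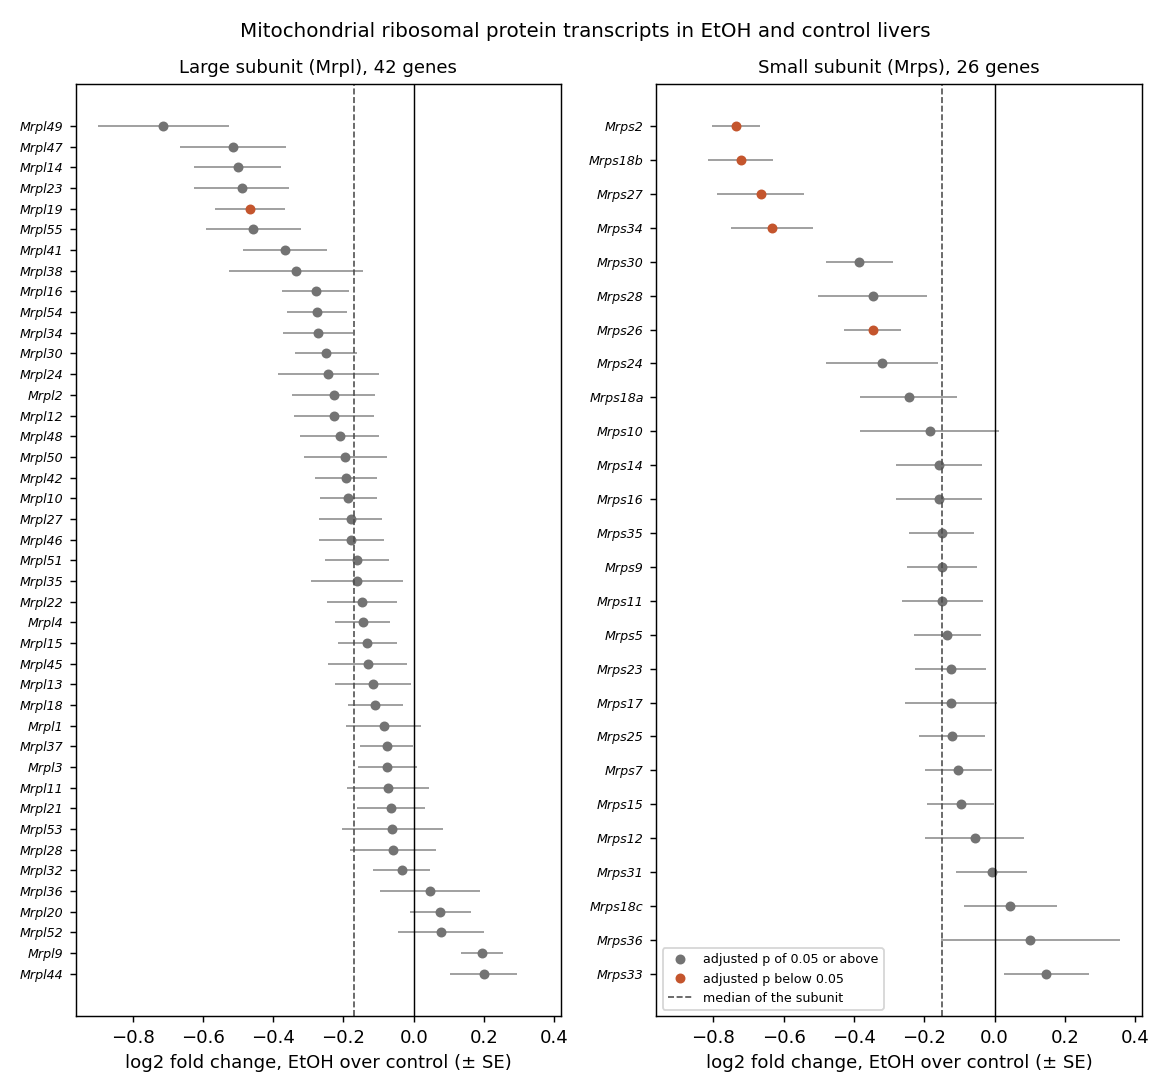
Log2 fold change of each gene, EtOH over control, with its standard error from limma, for the 42 large subunit genes (left) and the 26 small subunit genes (right), 6 livers per group. Coloured points have an adjusted p below 0.05, which holds for 1 large and 5 small subunit genes, and the dashed lines mark the subunit medians of -0.17 and -0.15.

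Without adjustment, 19 of the 68 genes had a limma p below 0.05 and a lower mean in EtOH livers, against 7.42% of all transcripts. This count was 27 with median scaling, 38 with voom and 47 with no normalization between livers. It was 44 in an unmoderated test on square-root values without a quantile step. The share of 7.42% belongs to the quantile-normalized fit. Shares of all transcripts at this unadjusted p were not counted in those other settings, so the counts cannot be read as a result of the family alone. At an adjusted p below 0.05, lower calls among all transcripts rose as well, from 1.29% to 1.55% with median scaling and 2.06% with voom. They reached 2.98% with no normalization and 1.79% in the unmoderated test. In the quantile-normalized fit, only Mrpl9 had a limma p below 0.05 and a higher mean, against 8.07% of all transcripts. In the RPKM as deposited, all 6 EtOH livers lay below all 6 control livers for 7 genes, Mrps2, Mrps18b, Mrps27, Mrps34, Mrpl34, Mrpl49 and Mrpl54. This order was seen in 2.43% of all transcripts. In the RPKM as deposited the opposite order was seen in none of the 68 genes and in 0.677% of all transcripts. After quantile normalization the groups stayed apart for Mrps2, Mrps18b, Mrps27 and Mrpl49 and overlapped for Mrps34, Mrpl34 and Mrpl54. The share of all transcripts was not counted on that normalized scale. In 47 of the 68 genes each of the 6 EtOH livers was below the control mean in RPKM as deposited, as in 21.1% of all transcripts. In RPKM as deposited the transcripts in general were lower in EtOH livers too. The counts describe the family, whose genes are not independent of each other, and no test was made of the family as a whole.

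Mrps2 had the clearest difference. It encodes a small subunit protein of bacterial descent. The listed transcript spans 7456261 to 7461264 on chromosome 3, in the coordinates of the deposited table, for which no genome build is named. Control livers ranged from 8.71 to 11.1 RPKM with a median of 10.3, and EtOH livers from 4.96 to 5.71 RPKM with a median of 5.54. The groups were far apart, and the EtOH livers lay close together. The means were 10.1 ± 0.857 and 5.44 ± 0.293 RPKM (SD, n = 6 each), so the control mean was 1.87 times the EtOH mean. In limma the log2 fold change was -0.74 ± 0.07 (SE), with an adjusted p of 3.87e-04. An exact two-sided permutation test of the difference in log2(RPKM + 0.5) as deposited, -0.84, gave p = 0.00216, the smallest that 6 against 6 livers allow. Any transcript whose groups do not overlap gets this p, and 2.43% of all transcripts had all EtOH livers below all control livers. Mrps2 was also chosen with earlier results of these livers known, so this p adds no separate support.

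Mrps18b was nearly as far apart. Mammals have 3 genes related to a single bacterial ribosomal protein, Mrps18a, Mrps18b and Mrps18c, whose proteins occupy different places in the mitoribosome. The Mrps18b transcript, at 2985990 to 2992029 on chromosome 20 in the deposited table, ranged from 25.7 to 45.3 RPKM in control livers (median 33.8) and from 15.1 to 20.4 RPKM in EtOH livers (median 18.7). No EtOH liver reached the lowest control liver. Mrps18b fell by 0.72 ± 0.09 on the log2 scale, with a limma adjusted p of 0.0026. Of the 6 genes called, Mrps18b alone had a pseudogene or similar copy listed in RefSeq, and reads shared with it could not be separated. The other genes of this trio were not called. Mrps18c had a log2 fold change of 0.04 ± 0.13, which turned negative with no normalization between livers and with voom, but not with median scaling, and Mrps18a one of -0.24 ± 0.14.

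**Figure D2:**
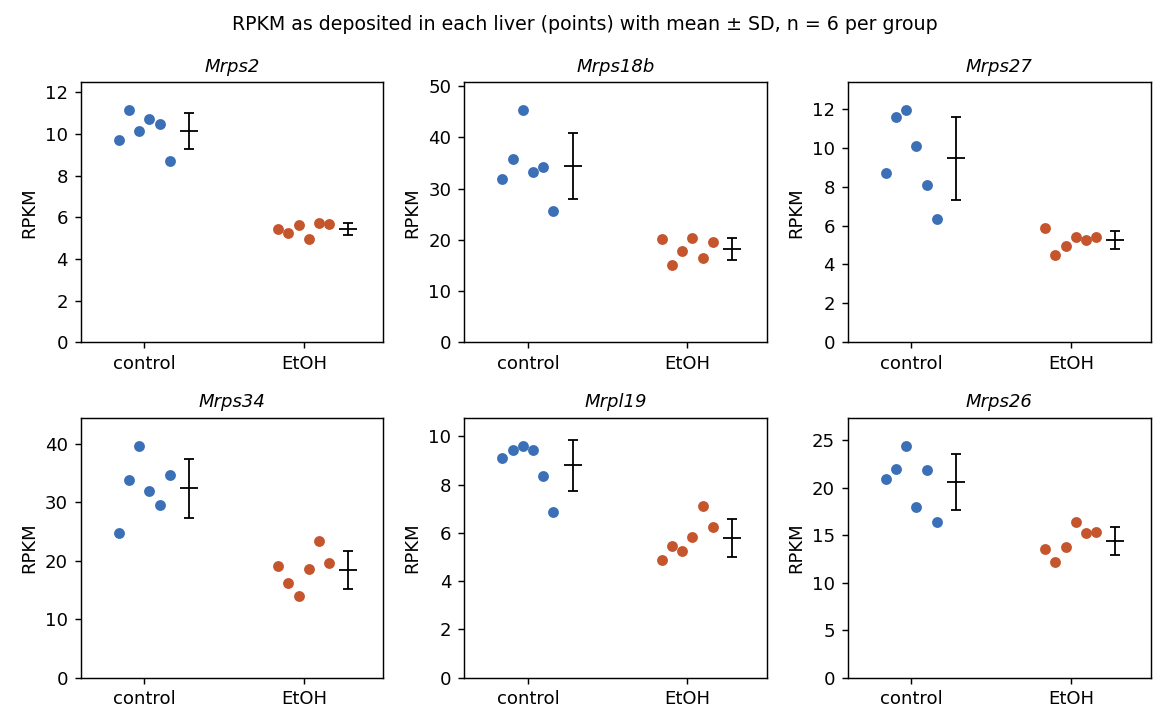
RPKM as deposited in each of the 12 livers for the 6 genes called lower, with the mean ± SD of the 6 livers of a group beside the points. EtOH and control livers do not overlap for Mrps2, Mrps18b, Mrps27 and Mrps34, and for Mrpl19 and Mrps26 the highest EtOH liver passes the lowest control liver.

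Mrps34 and Mrps27 followed. Both proteins are found only in mitochondria, and both contact the ribosomal RNA of the small subunit. Mrps34, at 14144109 to 14145240 on chromosome 10, ranged from 24.8 to 39.7 RPKM in control livers (median 32.9) and from 13.9 to 23.3 RPKM in EtOH livers (median 18.8). It fell by 0.63 ± 0.12 on the log2 scale (limma adjusted p = 0.018). Mrps27, at 30338206 to 30406170 on chromosome 2, ranged from 6.35 to 11.9 RPKM in control livers (median 9.40) and from 4.504 to 5.86 RPKM in EtOH livers (median 5.34). It fell by 0.67 ± 0.12 on the log2 scale (limma adjusted p = 0.020). The control livers spread more widely than the EtOH livers in Mrps27, with SDs of 2.15 and 0.462 RPKM. Without EtOH liver 2 the limma adjusted p of Mrps27 was 0.051, just above the threshold.

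Mrpl19 and Mrps26 passed the threshold by a narrower margin. Mrpl19 encodes a large subunit protein of bacterial descent at the face that meets the small subunit, and was the only gene with a large subunit symbol to be called. Mrpl19, at 116207542 to 116211771 on chromosome 4, ranged from 6.86 to 9.61 RPKM in control livers (median 9.27) and from 4.89 to 7.09 RPKM in EtOH livers (median 5.65). The highest EtOH liver lay above the lowest control liver, and the other livers were apart. Mrpl19 fell by 0.47 ± 0.10 on the log2 scale (limma adjusted p = 0.032). Mrps26, a small subunit protein found only in mitochondria, at 118180789 to 118182452 on chromosome 3, ranged from 16.4 to 24.4 RPKM in control livers (median 21.4) and from 12.2 to 16.4 RPKM in EtOH livers (median 14.5). It fell by 0.35 ± 0.08 on the log2 scale (limma adjusted p = 0.046). When 1 liver was left out in turn, Mrpl19 was called in 3 of 12 fits and Mrps26 in 2 of 12, while Mrps2, Mrps18b and Mrps34 were called in all 12. Mrps26 also lost its call on square-root values with the quantile step, without the mean-variance trend and in limma voom on the recovered reads, and kept it on square-root values without the quantile step.

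Among the large subunit genes that were not called, Mrpl49, Mrpl47 and Mrpl14 had the lowest log2 fold changes. Mrpl49, a protein found only in mitochondria, was at -0.71 ± 0.19 (limma adjusted p = 0.071), with 10.8 to 18.0 RPKM in control livers and 4.34 to 9.72 RPKM in EtOH livers. Its groups did not overlap, but as few as 10 reads stood behind a liver's value. Mrpl47, beside the exit tunnel, was at -0.52 ± 0.15 (limma adjusted p = 0.10), and Mrpl14, at the face toward the small subunit, was at -0.50 ± 0.12 (limma adjusted p = 0.057). Mrpl34 and Mrpl54 had smaller differences, and their groups did not overlap in the RPKM as deposited but did after quantile normalization. Mrpl34, of bacterial descent, ranged from 15.6 to 23.9 RPKM in control livers and from 11.9 to 15.2 RPKM in EtOH livers, with a log2 fold change of -0.27 ± 0.10 (limma adjusted p = 0.19). Mrpl54, near the stalk, ranged from 33.2 to 48.2 RPKM in control livers and from 25.7 to 32.2 RPKM in EtOH livers, with a log2 fold change of -0.28 ± 0.08 (limma adjusted p = 0.12).

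The 8 genes above 0 on the log2 scale did not include any that was called. Mrpl44, an exit tunnel protein, had the highest log2 fold change, 0.20 ± 0.10 (limma adjusted p = 0.35), with means of 14.5 ± 2.35 RPKM in control and 14.9 ± 0.993 RPKM in EtOH livers. Mrpl9, of bacterial descent, was at 0.19 ± 0.06 (limma adjusted p = 0.12), with means of 19.8 ± 2.20 and 20.3 ± 1.61 RPKM. Mrps33 was at 0.15 ± 0.12 and Mrpl52 at 0.08 ± 0.12, and both signs turned negative with no normalization between livers and with voom, but not with median scaling. None of these 4 differences passed the threshold.

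The symbol does not give the place of every protein. The products of Mrps18a and Mrps30 belong to the large subunit of the assembled mitoribosome, and that of Mrps36 is now placed with the ketoglutarate dehydrogenase complex. Mrps30 was at 12.9 ± 1.92 RPKM in control and 8.97 ± 1.29 RPKM in EtOH livers, a log2 fold change of -0.38 ± 0.10 (limma adjusted p = 0.060). Mrps18a was at 29.4 ± 8.63 and 21.7 ± 2.30 RPKM, with control liver 3 at 46.1 RPKM (limma adjusted p = 0.45). Mrps36 was at 6.03 ± 2.10 and 5.92 ± 1.83 RPKM, with as few as 5 reads in a liver. RefSeq lists 4 copies of Mrps36, so its row is uncertain. RefSeq listed such copies for 21 of the 68 genes in all.

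Both subunits had nearly the same median, and 5 of the 6 genes called carried a small subunit symbol. The median log2 fold change was -0.17 over the 42 large subunit genes and -0.15 over the 26 small subunit genes. Lower calls numbered 1 of 42 (2.38%) and 5 of 26 (19.2%), against 1.29% of all transcripts. With Mrps18a and Mrps30 counted in the large subunit and Mrps36 in neither, they numbered 1 of 44 and 5 of 23. Genes below 0 on the log2 scale were 37 of 42 and 23 of 26. The split of the calls depended on the setting. By symbol, large and small subunit calls numbered 6 and 6 with no normalization between livers, against 2.98% of all transcripts called lower. They numbered 5 and 6 with a minimum mean RPKM of 1 (3.97% of those tested) and 3 and 6 with median scaling (1.55%). In each of these settings the small subunit calls included Mrps30, whose product belongs to the large subunit. The difference between the subunits was not tested, because the genes of a subunit are not replicates.

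The summed RPKM of the large subunit genes divided by that of the small subunit genes was 1.55 to 1.72 in control livers (median 1.64) and 1.67 to 1.78 in EtOH livers (median 1.73). These ranges overlapped. Together the 68 genes made up 0.203 to 0.256% of the summed RPKM of a control liver (median 0.224%) and 0.172 to 0.200% of that of an EtOH liver (median 0.184%). The highest EtOH liver was below the lowest control liver in this share. The summed RPKM of all transcripts was itself lower in EtOH livers, 515781 to 532901 against 535264 to 577525. Shares take this sum into account, to which Alb alone added a mean of 70352 RPKM in control and 79085 RPKM in EtOH livers. They do not fully remove the general difference, a median log2 of -0.08 between the groups among transcripts averaging 1 RPKM or more.

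**Figure D3:**
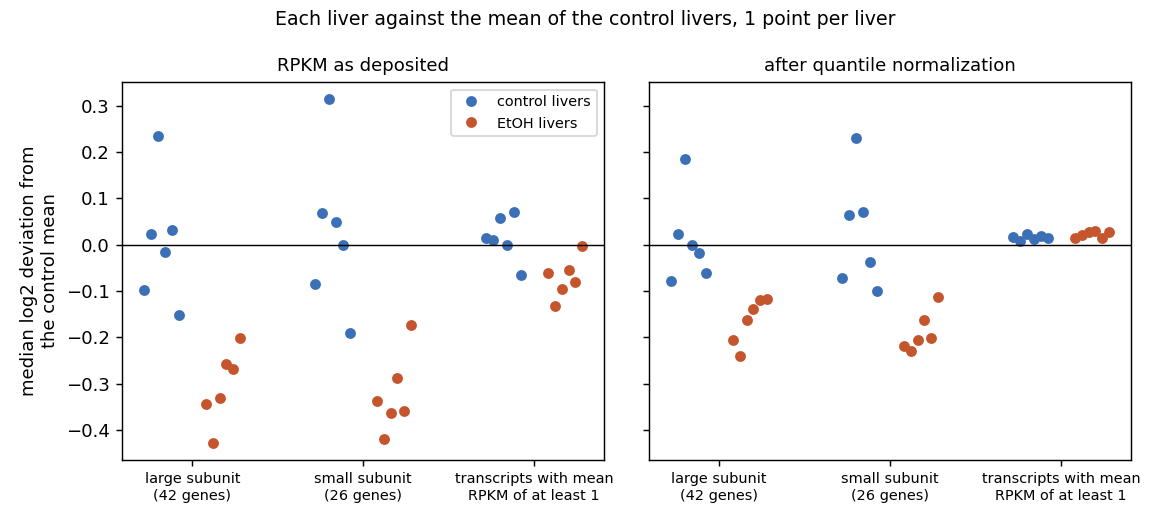
Median log2 deviation of each liver from the mean of the control livers, over the large subunit genes, the small subunit genes and the transcripts averaging 1 RPKM or more, in RPKM as deposited (left) and after quantile normalization (right). After quantile normalization the 6 EtOH livers lie between -0.24 and -0.12 for the large subunit and between -0.23 and -0.11 for the small subunit, and control liver 3 is the highest control liver for both.

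The lower level was shared by all 6 EtOH livers. After quantile normalization the median deviation of the 68 genes from the control mean was -0.08 to 0.19 in control livers and -0.23 to -0.11 on the log2 scale in EtOH livers. The control livers differed among themselves, and control liver 3 stood highest, at 0.19. Without control liver 3, 4 of the 68 genes were called lower (0.908% of all transcripts), and without EtOH liver 2, 3 were (0.607%). In the RPKM as deposited the EtOH livers lay further down, at -0.42 to -0.20 on the log2 scale. All transcripts averaging 1 RPKM or more were then lower too, with a median difference of -0.08 between the groups, which quantile normalization brought to 0.01. With no normalization between livers 12 of the 68 genes were called lower, against 2.98% of all transcripts, and 65 were below 0.

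By descent, 1 of 28 large and 2 of 16 small subunit genes with a bacterial homolog were called lower by symbol, against 1.29% of all transcripts, with median log2 fold changes of -0.15 in each. Of the genes whose proteins are found only in mitochondria, 0 of 14 with a large subunit symbol and 3 of 10 with a small subunit symbol were called lower by limma, with medians of -0.19 and -0.14. The unadjusted limma p was below 0.05 on the lower side for 3 of those 14, against 7.42% of all transcripts. With Mrps18a and Mrps30 placed in the large subunit and Mrps36 in neither, these counts were 1 of 29, 2 of 15, 0 of 15 and 3 of 8, with 4 of the 15 genes found only in mitochondria below an unadjusted limma p of 0.05. Functional sites of the large subunit showed no call by limma or limma voom. The medians were -0.19 for the 5 genes of the stalk that recruits translation factors, -0.20 for the 6 around the exit tunnel and -0.18 for the 7 of the central protuberance, with 2, 2 and 1 genes below an unadjusted p of 0.05 on the lower side, against 7.42% of all transcripts. Some were called lower in other settings. With no normalization these were Mrpl23 (exit tunnel) and Mrpl54 (stalk), against 2.98% of all transcripts, and with median scaling Mrpl23 (1.55%). With a minimum mean RPKM of 1 they were Mrpl23 and Mrpl47 (3.97% of those tested). Without EtOH liver 6 Mrpl23 was called as well (0.901%).

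Levels differed 9.71-fold among the 68 genes, from 3.49 RPKM for Mrpl47 to 33.9 RPKM for Mrpl54 as the mean of 12 livers. Mrpl54, Mrpl15 (32.6 RPKM) and Mrpl52 (31.5 RPKM) were the most abundant of the large subunit, and Mrpl47 and Mrpl55 (4.16 RPKM) the least. In the small subunit Mrps16 (28.6 RPKM), Mrps7 (26.9 RPKM) and Mrps18b (26.3 RPKM) were the most abundant, and Mrps10 (5.80 RPKM) and Mrps36 (5.97 RPKM) the least. The median gene of the large and the small subunit had 16.4 and 15.9 RPKM. Genes called lower were found at both ends of the range, since Mrps2, Mrps27 and Mrpl19 had 7.80, 7.35 and 7.29 RPKM and Mrps34 had 25.4 RPKM.

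For 7 genes a further transcript was above 0, 10 further transcripts in all, and none was called by limma or limma voom, the lowest unadjusted limma p being 0.074. Their reads were few, at most 39 over the 12 livers. The further transcripts of Mrpl1 had log2 fold changes of -0.25, -0.29 and -0.54, beside -0.09 for the main one, and the further transcripts of Mrps27 had -0.52 and -0.17, beside -0.67. Those of Mrpl11, Mrpl2, Mrps28 and Mrps36 had the opposite sign to the main transcript, on 1 to 21 recovered reads, and that of Mrpl52 had the same sign. Recovered reads are the smallest whole numbers that fit, so the 1 read of the Mrps28 transcript, above 0 in 1 liver, is a minimum.

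Mrps27 and its neighbour were lower together. Of the 68 genes, 28 had another gene within 1000 bases in the deposited coordinates, which gave 34 neighbours, Mrpl46 and Mrps11 being each other's. By limma 1 of these was called lower and 0 higher, against 1.29% and 1.13% of all transcripts. At an unadjusted limma p below 0.05, 3 were lower and 0 higher, against 7.42% and 8.07%. In limma voom on the recovered reads 2 were called lower, against 2.06% of all transcripts, and 0 higher. The neighbour called by limma was Ptcd2, which encodes a mitochondrial RNA-binding protein and was singled out after its values were seen. Ptcd2 was at 4.54 ± 0.537 RPKM in control livers and 2.41 ± 0.223 RPKM in EtOH livers, and fell by 0.74 ± 0.10 on the log2 scale (limma adjusted p = 0.0034). No EtOH liver reached the lowest control liver, with 2.66 against 3.81 RPKM. In RefSeq the starts of Mrps27 and Ptcd2 are 91 bases apart and point away from each other, so their promoter windows share 190 bases, which hold the ETS and YY1 letters shown above. Mrpl46 and Mrps11 form a similar pair, with starts 234 bases apart, and had log2 fold changes of -0.18 ± 0.09 and -0.15 ± 0.11, neither called. The neighbours of the other genes called, Mrps18b and Mrps34, were not called.

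No gene of the other lists of the mitochondrial translation machinery was called, by limma or by limma voom on the recovered reads. Among all transcripts, 7.42% had an unadjusted limma p below 0.05 on the lower side and 8.07% on the higher side. Of 7 mitoribosome proteins under other names, such as Dap3, all were below 0 on the log2 scale, with a median of -0.11, and 1 had an unadjusted limma p below 0.05. This was Gadd45gip1, at 25.0 ± 4.14 RPKM in control and 17.6 ± 2.36 RPKM in EtOH livers (limma adjusted p = 0.12). Mrpl17 was listed under a protein name and stood outside the symbol rule. It was at 41.6 ± 4.98 and 31.9 ± 2.90 RPKM, a log2 fold change of -0.21 ± 0.07 (limma adjusted p = 0.16). Of the translation factors, 8 of 13 were found, and 1 had an unadjusted limma p below 0.05. This was Oxa1l, which inserts new proteins into the inner membrane, with a log2 fold change of 0.17 ± 0.07. Of the assembly and rRNA modification factors, 14 of 18 were found, 13 were below 0 with a median of -0.19, and 4 had an unadjusted limma p below 0.05. Fastkd2, an RNA-binding protein of large subunit assembly, had the smallest p, at 3.58 ± 0.794 and 2.14 ± 0.446 RPKM (limma adjusted p = 0.10). Of the mitochondrial transcription genes, 6 of 7 were found, 2 had an unadjusted limma p below 0.05, and the RNA polymerase Polrmt had the smallest p, with a log2 fold change of -0.29 ± 0.12.

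The products of the mitoribosome are the proteins encoded in mitochondrial DNA, and their transcripts were measured as well. Of 13 such transcripts, 3 were called lower and 0 higher by limma, against 1.29% and 1.13% of all transcripts, with a median log2 fold change of -0.06. In limma voom, which applies no quantile step, 3 were called lower as well, against 2.06% of all transcripts, with a median of -0.17. The quantile step gives the same value to a transcript that holds the same rank in all livers. This held for mt-Co1, at 16690 ± 971 and 16042 ± 1088 RPKM, and the median of -0.06 includes such values. The transcript mt-Nd3 fell by 0.40 ± 0.07 on the log2 scale (limma adjusted p = 0.014), from 1861 ± 199 to 1349 ± 57.4 RPKM. A second complex I transcript, mt-Nd6, fell by 0.38 ± 0.08 (limma adjusted p = 0.032), from 1253 ± 180 to 961 ± 75.1 RPKM. The cytochrome b transcript mt-Cytb fell by 0.30 ± 0.06 (limma adjusted p = 0.035), from 6389 ± 686 to 4837 ± 297 RPKM. These genes lie close together or on opposite strands of a small circular genome, and the library kit does not mark strand, so reads of mt-Nd6 and of its opposite strand cannot be told apart.

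**Figure D4:**
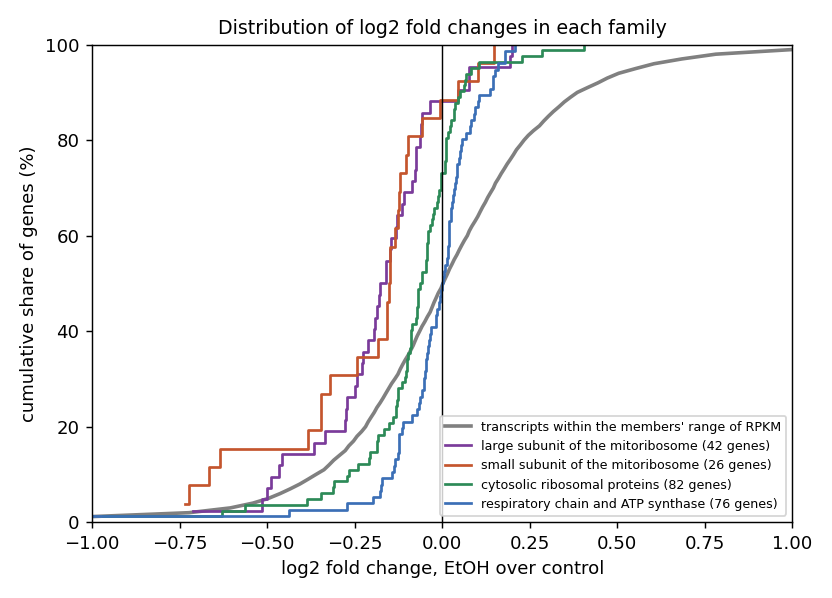
Cumulative share of genes (%) against log2 fold change, EtOH over control, with the axis cut at -1 and 1. Curves show the 2 subunits of the mitoribosome, cytosolic ribosomal protein symbols, respiratory chain and ATP synthase symbols, and the transcripts within the mitoribosome genes' RPKM range. At a log2 fold change of 0 the curves of the large and small subunit stand at 88.1% and 88.5%, those of the cytosolic ribosomal proteins and the respiratory chain at 73.2% and 48.7%.

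The medians of 2 similar families lay closer to 0. Of 82 genes with a cytosolic ribosomal protein symbol, 1 was called lower, against 1.29% of all transcripts, 60 were below 0 and the median log2 fold change was -0.06. The gene called was Rps4x, low for this family at 5.78 and 3.36 RPKM and near the threshold (limma adjusted p = 0.0496). The symbols took in 7 kinase genes of the Rps6k group, and without them the median was -0.06 over 75 genes. Rps19bp1, Rpl32-ps1 and Rpl37a-ps1 remained among the 75. Of 76 nuclear genes with a respiratory chain or ATP synthase symbol, none was called by limma or limma voom, and the median was 0.00. An unadjusted limma p below 0.05 was seen in 5 on the lower side and 4 on the higher side, against 7.42% and 8.07% of all transcripts. Membership rests on the symbol alone, which also took in Cox4nb, among the 5 lower at an unadjusted limma p of 0.044. In limma voom, which applies no quantile step, the medians were -0.17 for the cytosolic ribosomal proteins, -0.13 for the respiratory chain and -0.28 for the 68 mitoribosome genes. The difference between these families and the mitoribosome genes was not tested, and the cytosolic ribosomal protein genes had a much higher median level, 178.9 RPKM.

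Depth and the levels of some cell type markers differed between the groups. Whole reads recovered from the RPKM numbered 2610238 to 4318141 per control library and 3945593 to 6030028 per EtOH library. Hepatocyte markers were found for 6 of 7 genes and summed to 70143 to 98730 RPKM in control and 79683 to 106176 RPKM in EtOH livers. Nearly all of this sum was Alb, which the quantile step sets to the same value in all livers. Cps1 was called higher, and Tat, Ttr, Serpina1 and Cyp2e1, at -0.15, -0.01, 0.10 and 0.34 on the log2 scale, were not called. Of 3 Kupffer cell markers found of 6 listed, Cd163 and Clec4f were called higher. The summed level, mostly that of Clec4f, was 66.9 to 104 RPKM in control and 91.1 to 112 RPKM in EtOH livers. Of 5 stellate cell markers found of 5, Col3a1 was called higher, with sums of 21.6 to 26.6 and 25.1 to 36.1 RPKM. In limma voom on the recovered reads none of the Kupffer and stellate cell markers was called and 2 hepatocyte markers were called higher. Neither the 2 endothelial nor the 3 cholangiocyte markers found were called by limma, with sums of 21.0 to 27.1 and 4.27 to 8.16 RPKM in control and 22.9 to 33.1 and 3.69 to 7.67 RPKM in EtOH livers. Their part, and that of depth, in the lower mitoribosome transcripts was not tested.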

How the data were processed

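Poly(A) RNA from 12 rat livers was sequenced by the authors in 101-nucleotide paired-end reads, mapped and quantified with the CLCbio Genomics Workbench 4.9, and deposited as RPKM per transcript and animal, neither transformed nor quantile normalized. The genome build and strand setting were not stated in what was read here. The same table holds the authors' own comparison (a test statistic, its p-value, an FDR and a fold change), which was not used.

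All 21718 transcripts above 0 in at least 1 liver were tested with limma 3.58.1 (R 4.3.3, mean-variance trend) on quantile-normalized log2(RPKM + 0.5), 6 EtOH against 6 control livers, p-values being adjusted by Benjamini-Hochberg and judged at 0.05. Fold changes on this scale understate those of low transcripts. A pooled-error test on square-root values, as in the study's methods, was among the alternatives. RPKM values were also turned back into whole reads (tolerance 0.01 read), which gave the depth of 2610238 to 6030028 reads per library and a count-based alternative. Depth limits the genes with few reads, and no interval is given beyond the SE or SD. Scripts were tested on simulated data. The groups came from the sample labels. Animal numbers occur in both groups, the labels state no pairing, and the animals were treated as unpaired. No animals of a group were pooled, and p-values measure the spread between animals.

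Genes and lists were chosen with earlier results of these data known. Genes named with values were Mrps2, every gene called, the 3 per subunit that moved most on the log2 scale upward and downward, the 3 most and 2 least abundant per subunit, those whose groups do not overlap, those with several transcripts, and Mrps18a, Mrps30 and Mrps36, and in each further list the genes called and the one with the smallest p. Promoter sequences came from RefSeq (GRCr8), matched by symbol. Python 3.11.15 with numpy 2.4.6, pandas 2.3.3, scipy 1.17.1 and matplotlib 3.10.9 was used.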

Additional observations from a re-analysis of the deposited data

Results flagged for a closer look

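In control liver 3, Mrps18a was at 46.1 RPKM, against 29.3 RPKM in the next highest of the 6 control livers, a gap of 0.687 of the range of the group, above Dixon's critical value for 6 values. Among the 56 groups of 6 livers examined, 28 genes in each of the EtOH and control groups, it was the only one past the limit, and chance alone gives about 1 in 20. Without that liver Mrps18a was not called either.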

How the results depend on the processing

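Across the settings tried, 0 of the 68 genes were called higher, and Mrps2 and Mrps18b were called lower throughout, the replicate block included. Subunits are counted by symbol here, so Mrps30 is among the small subunit genes. With no normalization between livers 12 genes were called lower (2.98% of all transcripts), 6 of the large subunit. The subunit medians were then -0.30 (large) and -0.28 (small). Median scaling (1.55% of all transcripts called lower) and a minimum mean RPKM of 0.1 (1.92%) each gave 3 large subunit calls. A minimum mean RPKM of 1 (3.97%) gave 11 calls, 5 of them in the large subunit. With limma voom on recovered reads the subunit medians were -0.29 and -0.27. Leaving out 1 liver in turn gave 3 calls without EtOH liver 2 (0.607% of all transcripts called lower) to 7 without control liver 6 (1.53%) or EtOH liver 4 (0.767%). Across these fits there were 0 to 1 calls in the large subunit and 3 to 6 in the small subunit. The medians were -0.20 to -0.12 (large) and -0.18 to -0.11 (small). Mrpl19, the only large subunit gene called, was lost without control liver 1, 2, 3 or 4 or EtOH liver 1, 2, 3, 4 or 6. Same-numbered livers had correlations of -0.067 to 0.032 and 1 of 6 matched its own number best, which shows no strong pairing but cannot exclude a weak one. With the replicate block 2 genes were called, 0 of the large and 2 of the small subunit, against 0.336% of all transcripts called lower. Signs turned in genes that were not called. Without normalization, Mrpl52, Mrps18c and Mrps33 were at -0.073, -0.087 and -0.0080, with voom at -0.092, -0.068 and -0.0056, and on the square-root scale without the quantile step at -0.15, -0.13 and -0.028. Mrps36 was at -0.022 with voom, at -0.0081 on the square-root scale without the quantile step, and at -0.079 to 0.22 with a liver left out, and Mrps18c at -0.043 to 0.11. The second transcripts of Mrpl11, Mrpl2, Mrps28 and Mrps36 were at 0.20, 0.14, 0.11 and -0.42. The cause of these shifts was not tested.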
